A study of Mus musculus with 12 samples.

Results

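The genes described here are those of the start of the Wnt pathway at the cell surface: the secreted Wnt ligands, the pair of genes that ready them for release, their receptors and co-receptors, and the antagonists secreted against them. They were chosen by symbol from the deposited table of mouse cortex RNA, as every Wnt, Fzd (Frizzled), Sfrp and Dkk gene together with *Lrp5*, *Lrp6*, *Ryk*, *Ror1*, *Ror2*, *Wif1*, *Frzb*, *Porcn* and *Wls*. This gave 46 of the table's 36047 genes and 121 of its 118489 transcripts: 19 ligands, 2 genes of ligand maturation and release, 10 Frizzled receptors, 5 other receptors or co-receptors and 10 secreted antagonists. Cortices came from WT mice and from *Gde2*KO mice, which lack GDE2 (encoded by *Gdpd5*) in every tissue throughout life, with 3 libraries of each genotype at 4 months and 3 of each at 19 months. The younger animals were sequenced in the study to look for pathways under the control of GDE2 that bear on transport in and out of the nucleus and on the place of the RNA-binding protein TDP-43 in neurons, and the older ones to examine splicing. Male and female mice were used according to the methods, and the labels do not give the sex of a sample. The labels number samples without naming animals, so the p-values below measure the spread between these samples.

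A Wnt ligand is given a lipid by Porcupine (*Porcn*) and carried to the cell surface by Wntless (*Wls*), and outside the cell it binds a Frizzled receptor. With the co-receptors *Lrp5* or *Lrp6* this stabilizes β-catenin, which enters the nucleus and activates target genes such as *Axin2*, whereas receptors such as *Ryk*, *Ror1* and *Ror2* act mainly through branches that do not need β-catenin. Secreted Frizzled-related proteins (the Sfrp genes and *Frzb*) and *Wif1* bind the ligands themselves, while *Dkk1* and its close relatives bind the LRP co-receptors. In the brain the pathway is known for patterning the forebrain and hippocampus, for vessel growth and for synapse formation.

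Levels between genes and sums over genes are given here as TPM, a value per transcript length that the authors divided by a size factor for each library. Calls and fold changes between groups rest on normalized counts, the estimated counts divided by such a factor. The libraries held 46434270 to 59728494 estimated reads at 4 months and 3707928 to 44604721 at 19 months, where the libraries called A in both genotypes were shallow and 1 read was worth 4.66 normalized counts in WT and 8.29 in *Gde2*KO. *Gdpd5*, the targeted gene, stood at 684, 702 and 1199 normalized counts in WT and 417, 585 and 403 in *Gde2*KO at 4 months, and at 1065, 1129 and 952 against 441, 456 and 560.1 at 19 months, lower in every *Gde2*KO library of each age than in any WT library of that age. Its log2 fold changes were -0.85 (SE 0.25, adjusted p = 0.463) and -1.11 (SE 0.12, adjusted p = 0.0111), of which limma called the second. Libraries 1 and 2 of the 4-month WT group stood apart from the other 4 libraries of their age. Their mean marker scores (log2, centered on the age) were 2.58 and 2.39 for hippocampus, where the others lay between -1.61 and -0.73, and -2.35 and -2.47 for striatum, where the others lay between 0.50 and 1.85. Fold changes between genotypes at 4 months that are printed for genes of the group are therefore given without this pair as well. The Y-linked gene *Ddx3y* ranged from 21.8 to 46.5 normalized counts in the 4-month libraries and from 1407 to 1776 in 5 of the 19-month libraries, and it was at 0 in the 19-month *Gde2*KO library A.

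Transcript levels of the group were uneven, and a single gene made up much of it. That gene was placed among the antagonists by its family, and its activity was not measured. *Dkk3*, a divergent member of the Dickkopf family, had a mean of 195 TPM over the 12 libraries, which was 41.4% of the summed TPM of all 46 genes and 88.8% of that of the antagonists. Of the others, 7 genes lay between 10 and 100 TPM, 24 between 1 and 10 TPM and 14 under 1 TPM. By summed TPM the antagonists held 46.6% of the whole, maturation and release 17.5%, ligands 16.0%, Frizzled receptors 10.4% and the other receptors 9.40%. The ligands summed to 75.5 ± 4.37 TPM (SD, n = 3) in WT and 79.4 ± 10.3 in *Gde2*KO at 4 months, and to 72.8 ± 3.30 and 73.3 ± 1.34 at 19 months, so the genotypes differed by less than the larger SD at each age. The antagonists summed to 235 ± 74.8 TPM in 4-month WT, 187 ± 19.8 in 4-month *Gde2*KO, 215 ± 9.37 in 19-month WT and 242 ± 20.9 in 19-month *Gde2*KO, with the widest spread in the group that holds the WT libraries 1 and 2. The deposited TPM of a whole library summed to 887748 in 19-month WT library B, the lowest, and 1472300 in 4-month *Gde2*KO library 3, the highest. The sums and SDs given here carry this difference in scale.

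**Figure D1:**
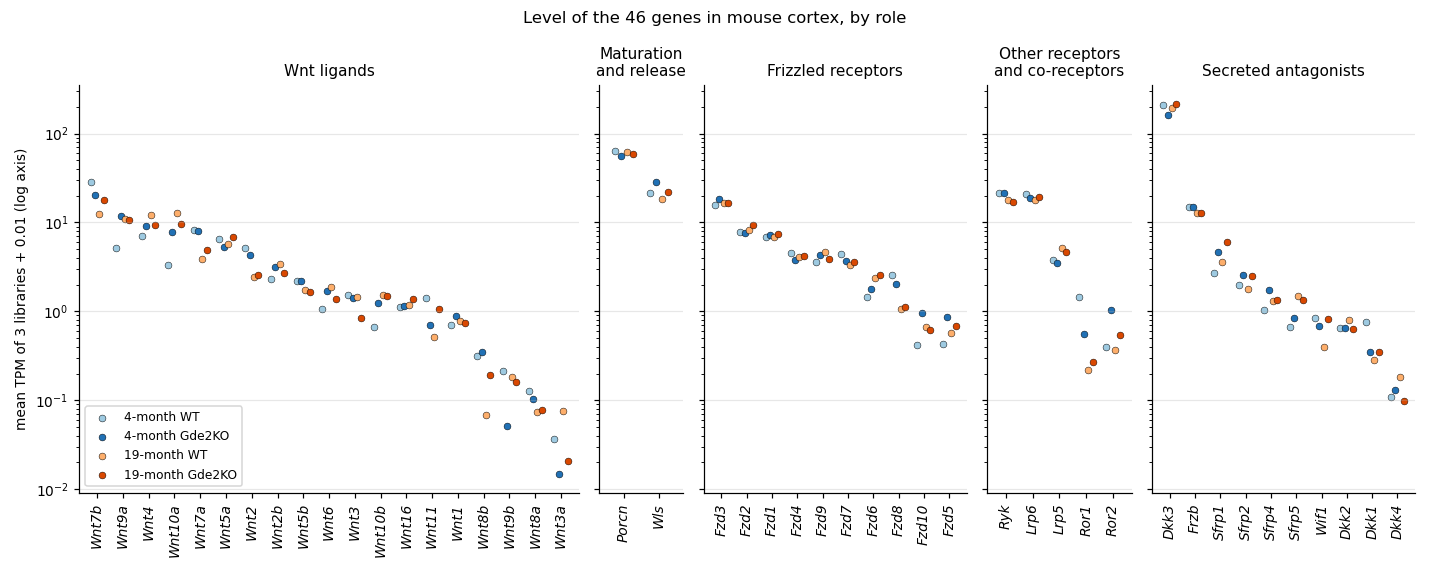
Mean TPM of each of the 46 genes in the 4 groups (vertical axis, log scale, 0.01 added so that low values can be drawn), ordered by level within each role. Each point is the mean of 3 libraries. *Dkk3* lay near 200 TPM, *Porcn* near 60 TPM, and 14 genes had a mean under 1 TPM over all libraries.

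In the maturation step, *Porcn*, the enzyme that attaches the lipid, had a mean of 60.1 TPM. Its normalized counts were 2204, 2032 and 1582 in WT and 1779, 1657 and 2044 in *Gde2*KO at 4 months, and 1924, 2097 and 1777 against 1625, 1902 and 1929 at 19 months. In this and the following pairs of values WT is given first and *Gde2*KO second, with libraries in the order 1 to 3 at 4 months and A to C at 19 months. The genotypes of *Porcn* overlapped at each age. *Wls*, the carrier that takes ligands to the surface, had a mean of 22.5 TPM.

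The leading ligand by TPM was *Wnt7b* (19.8 TPM), which with *Wnt7a* (6.22 TPM) is known for driving the growth of brain vessels. It was followed by *Wnt9a* (9.66 TPM), *Wnt4* (9.36 TPM) and *Wnt10a* (8.36 TPM), and the means of these last 3 genes lay closer together than the spread between their libraries. *Wnt4*, known for its part in kidney and ovary development, had 441, 487 and 660.2 normalized counts in 4-month WT and 775, 509.6 and 865 in 4-month *Gde2*KO, then 1032, 952 and 769 against 566, 723 and 828 at 19 months, with overlap at both ages. At the bottom of the order, *Wnt9b*, *Wnt8a* and *Wnt3a* had means of 0.142, 0.0855 and 0.0268 TPM.

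Among the receptors, *Fzd3*, which guides axons through planar cell polarity signaling, led the Frizzled family at 16.8 TPM. Its counts of 3161, 3486 and 4675 in 4-month WT and 5031, 4531 and 4206 in 4-month *Gde2*KO overlapped, as did 4086, 3727 and 4133 against 4536, 3615 and 3994 at 19 months. *Fzd2* (8.23 TPM) had 386, 431 and 692 against 577, 438 and 539 normalized counts in WT and *Gde2*KO at 4 months, and 471, 599 and 554 against 464, 627 and 748 at 19 months. *Fzd1* (7.06 TPM) had 377, 604 and 554 against 599.6, 463 and 631 at 4 months, and 582, 494 and 477 against 498, 619 and 597 at 19 months. For both of these receptors the genotypes overlapped at each age.

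The atypical receptor *Ryk* (19.5 TPM) and the co-receptor *Lrp6* (19.2 TPM) had close means and were above *Lrp5* (4.29 TPM). *Ryk* had 996, 902 and 907 normalized counts in WT and 928, 889 and 1110.0 in *Gde2*KO at 4 months, and 853, 755 and 718 against 738, 741 and 773 at 19 months. *Lrp5* had 327, 423 and 423 against 401, 349 and 351 at 4 months, and 496, 430.1 and 439 against 408, 528 and 470.3 at 19 months. Neither separated the genotypes at an age, while every 19-month library of *Ryk* lay below every 4-month library.

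Of the antagonists below *Dkk3*, *Frzb* (13.8 TPM) and *Sfrp1* (4.24 TPM) came next, and both encode ligand-binding relatives of the Frizzled receptors. *Frzb* stood at 577, 705 and 668 normalized counts in 4-month WT and 888, 525 and 889.8 in 4-month *Gde2*KO, and at 559, 633 and 549 against 556, 512 and 514 at 19 months, overlapping at each age. For *Wnt4*, *Fzd2* and *Fzd3* the 4-month WT libraries 1 and 2 both lay outside the other 4, and the genotype log2 fold changes at 4 months were 0.42, 0.08 and 0.30 with the pair and 0.082, -0.43 and -0.031 without it, none of them called. *Dkk4*, an LRP-binding Dickkopf protein, was the lowest antagonist at 0.120 TPM.

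Between the genotypes at 4 months no gene of the group was called. The question was whether loss of GDE2 changes the transcripts of the surface step in young cortex. Of the 46 genes, 42 passed the filter on low values, and the other 4 were *Wnt9b*, *Dkk4*, *Wnt8a* and *Wnt3a*. At a limma adjusted p under 0.1 and an absolute fold above 0.721 on the log2 scale, 0 of the 42 were called, where 24 of all 19035 genes tested were (0.126%, 20 higher and 4 lower). At an unadjusted p under 0.05 there were 7 of the 42 (16.7%, beside 10.6% of all genes), namely *Wnt9a*, *Wnt10a*, *Wls*, *Fzd5*, *Fzd10*, *Ror1* and *Sfrp1*. The median log2 fold change of the 42 was 0.16 and that of all genes 0.11, and 27 of the 42 were higher in *Gde2*KO. When the libraries were rescaled by median-ratio factors, which moved the median of all genes to 0.01, the median of the 42 was 0.06 and 23 were higher. In whole tissue, fewer cells that express a gene and less RNA per cell cannot be told apart.

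Libraries did not overlap for 4 genes that were higher in *Gde2*KO (9.52% of the 42, beside 11.1% of all genes) and 2 that were lower (4.76%, beside 4.26%). *Wnt9a*, a ligand known from joint development, had 136, 213 and 552 normalized counts in WT and 697, 582 and 886 in *Gde2*KO. WT libraries 1 and 2 were far below the rest, WT library 3 was close to the lowest *Gde2*KO library, and the log2 fold change was 1.49 (SE 0.46, adjusted p = 0.463). *Wnt10a*, a ligand needed for teeth and hair, had 73.5, 87.7 and 255 in WT and 313, 256 and 448 in *Gde2*KO. Its order of libraries was alike, with WT library 3 just under the lowest *Gde2*KO library, and the log2 fold change was 1.48 (SE 0.45, adjusted p = 0.463).

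*Wls* had 929, 953 and 1219 normalized counts in WT and 1299.8, 1277 and 1817 in *Gde2*KO, a log2 fold change of 0.49 (SE 0.18, adjusted p = 0.463). *Fzd5*, a Frizzled receptor known from eye and gut development, had 31.8, 54.6 and 75.1 against 123, 120.3 and 78.1, a log2 fold change of 1.04 (SE 0.35, adjusted p = 0.463). In both genes WT library 1 was the lowest and WT library 3 the nearest to *Gde2*KO. *Lrp6* was lower, with 2059.8, 2322 and 2069 in WT and 2047, 2003 and 1660.2 in *Gde2*KO, a log2 fold change of -0.18 (SE 0.13, adjusted p = 0.545). *Fzd8*, another Frizzled receptor, had 280.4, 301 and 262 against 255, 197 and 246, a log2 fold change of -0.28 (SE 0.17, adjusted p = 0.503). For these 2 genes the gap between the closest libraries of the genotypes was small beside the range within a genotype. The exact two-sided permutation p of each of the 6 genes was 0.1, the smallest that 3 against 3 allows. The lack of overlap by which these genes were chosen fixes this value, so it adds no support.

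Without WT libraries 1 and 2 only 1 WT library was left against 3, so that its spread was taken to be that of the *Gde2*KO group. The log2 fold changes were then 0.37 for *Wnt9a*, 0.37 for *Wnt10a*, 0.24 for *Wls*, 0.48 for *Fzd5*, -0.13 for *Lrp6* and -0.18 for *Fzd8*. All kept their sign and none was called. Without WT library 3 in place of these, 11 of the 42 genes tested were called, beside 1510 of all 18798 genes. Of the 11, 7 were higher in *Gde2*KO (*Wnt9a*, *Wnt10a*, *Wnt2b*, *Sfrp1*, *Sfrp5*, *Fzd5* and *Fzd10*) and 4 lower (*Wnt7b*, *Wnt11*, *Ror1* and *Dkk1*). The WT group was then the pair alone. For all 11 genes the pair lay outside the range of the other libraries of that age, so these calls restate its position and add no support. The number of calls at 4 months, in this group and over all genes, thus differed with which WT libraries were in the fit.

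The position of the WT pair was visible gene by gene. Both libraries lay outside the range of the other 4 libraries of that age for 21 of the 42 genes (50%, beside 34.9% of all genes). They were both below for 15 (35.7%, beside 22.1%): *Wnt1*, *Wnt2b*, *Wnt4*, *Wnt6*, *Wnt8b*, *Wnt9a*, *Wnt10a*, *Wnt10b*, *Wls*, *Fzd2*, *Fzd3*, *Fzd5*, *Fzd10*, *Sfrp1* and *Sfrp5*. They were both above for 6 (14.3%, beside 12.8%): *Wnt7b*, *Wnt11*, *Fzd8*, *Ror1*, *Dkk1* and *Dkk3*. These libraries were singled out by their marker scores, and the genes of the following paragraph were chosen after their values were seen.

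*Fzd10*, a Frizzled receptor of low level, had 7.93, 10.3 and 50.8 normalized counts in WT and 63.9, 49.5 and 55.9 in *Gde2*KO, so that WT library 3 fell within the *Gde2*KO range. Its log2 fold change was 1.76 (SE 0.63, adjusted p = 0.463) with all libraries and 0.14 without the WT pair. *Ror1*, which with *Ror2* binds *Wnt5a*, had 152, 239 and 62.1 in WT and 65.2, 82.5 and 29.0 in *Gde2*KO. Only the WT pair was high, and the log2 fold change went from -1.28 (SE 0.55, adjusted p = 0.463) to -0.20 without it. *Sfrp1* had 101, 213 and 314 against 282, 468 and 389, and its log2 fold change went from 0.97 (SE 0.40, adjusted p = 0.463) to 0.24. For *Dkk3*, with 15984, 14305 and 7292 normalized counts in WT and 9133, 8991 and 11494 in *Gde2*KO, the sign turned, from -0.27 (SE 0.29, adjusted p = 0.650) to 0.43. *Wnt7b*, with 1928, 1670.0 and 863 against 1264, 849 and 1178, turned likewise, from -0.38 (SE 0.30, adjusted p = 0.570) to 0.33. The pair of WT libraries also held the marker extremes given above, with a summed TPM of the 10 hippocampal markers of 35.5 to 492 over the WT group and 42.7 to 57.7 over *Gde2*KO, and of the 12 striatal markers of 149 to 2102 and 1148 to 2874. No marker of either list was at 0 in any group, and whether tissue from these regions accounts for the values was not tested.

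**Figure D2:**
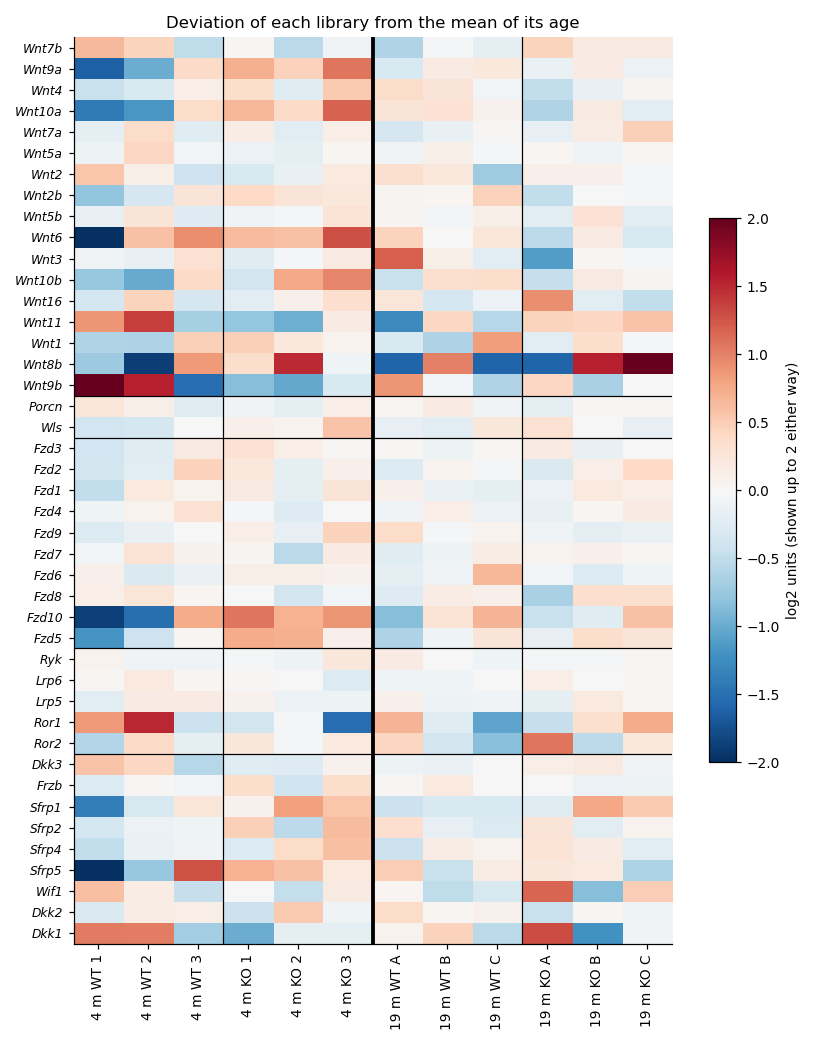
Deviation of each library (columns) from the mean of its age on the log2 scale for the 43 genes tested over all libraries (vertical axis, ordered by role and level; red above, blue below, colors end at 2 either way). The 2 leftmost columns, 4-month WT libraries 1 and 2, hold strong colors in *Wnt9a*, *Wnt10a*, *Fzd10*, *Ror1* and *Sfrp5*.

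At 19 months again no gene of the group was called between the genotypes. *Wnt8b* replaced *Wnt9b* among the 4 genes below the filter, and limma called 0 of the 42 tested, where 18 of 18583 genes were called (0.0969%, 6 higher and 12 lower). At an unadjusted p under 0.05 there were 5 of the 42 (11.9%, beside 6.91% of all genes), namely *Wnt7b*, *Sfrp1*, *Wnt10a*, *Wnt4* and *Dkk3*. The median log2 fold change was 0.02 for the 42 and -0.02 for all genes. Libraries did not overlap for 3 genes higher in *Gde2*KO (7.14%, beside 5.85% of all genes) and 3 lower (7.14%, beside 8.32%).

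*Wnt7b* stood at 503, 747 and 675 normalized counts in WT and 1037, 862 and 858 in *Gde2*KO. Its log2 fold change was 0.53 (SE 0.15, adjusted p = 0.605), and *Gde2*KO library A, the shallowest, was the highest of the 6. *Sfrp1* stood at 270.2, 296 and 289.8 in WT and 307, 622 and 523 in *Gde2*KO, a log2 fold change of 0.70 (SE 0.23, adjusted p = 0.646). Here *Gde2*KO library A was the lowest of its group and close to WT. Without it *Sfrp1* passed both thresholds, at a log2 fold change of 0.9996 with an adjusted p of 0.0425 by limma, and without both shallow libraries it stood at 0.96 with an adjusted p of 0.0720. Of the settings that kept *Gde2*KO library A, array weights alone called this antagonist (log2 fold change 0.87, adjusted p = 0.0243 by limma). Library A held the fewest reads, and it was also the only library of its age without RNA of the Y-linked gene described above. The *Gde2*KO libraries left without it, B and C, have column names that begin with the same code, which the labels do not explain. Which of these differences bears on the call was not tested.

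*Wnt11*, a ligand of the branch without β-catenin, had 4.66, 16.1 and 7.93 normalized counts in WT and 16.6, 16.2 and 17.9 in *Gde2*KO, a log2 fold change of 0.95 (SE 0.61, adjusted p = 0.734). These values amount to few reads, since in *Gde2*KO library A 1 read alone gave 8.29 normalized counts. *Wnt11* lies on chromosome 7, 526 kb from *Gdpd5*, nearer to it than any other gene of the group. At 4 months its counts were 28.8, 41.1 and 9.56 in WT and 8.77, 7.56 and 17.3 in *Gde2*KO, in the other direction and overlapping.

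The 3 genes lower in *Gde2*KO were *Fzd9*, *Wnt2b* and *Dkk2*. *Fzd9*, a Frizzled receptor, had 214, 163 and 174 normalized counts in WT and 158, 145 and 151 in *Gde2*KO, a log2 fold change of -0.27 (SE 0.16, adjusted p = 0.734). *Wnt2b*, a ligand close in sequence to *Wnt2*, had 182, 179.5 and 241 against 124, 176 and 170.0, a log2 fold change of -0.36 (SE 0.19, adjusted p = 0.734). *Dkk2*, an LRP-binding antagonist, had 60.0, 47.8 and 49.4 against 33.9, 47.7 and 43.7, a log2 fold change of -0.33 (SE 0.28, adjusted p = 0.759). In each of them the closest libraries of the genotypes nearly met. Each exact permutation p was 0.1, a value fixed by the lack of overlap by which they were chosen.

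*Dkk3*, the most abundant of the group, had 11354, 11076 and 12149.9 normalized counts in WT and 13303, 13777 and 11663 in *Gde2*KO, a log2 fold change of 0.16 (SE 0.07, adjusted p = 0.711). *Wnt10a* had 559, 572 and 493 against 307, 526 and 402, a log2 fold change of -0.43 (SE 0.18, adjusted p = 0.711), and *Wnt4* had a log2 fold change of -0.39 (SE 0.16, adjusted p = 0.711). The genotypes overlapped for all 3 genes. Beside these values, the hippocampal markers summed to 39.2 to 51.1 TPM in WT and 56.0 to 69.5 TPM in *Gde2*KO at this age. *Fibcd1* alone was called among the 10 (log2 fold change 1.44). Of the 10, 9 were higher in *Gde2*KO, with a median log2 fold change of 0.53. The striatal markers summed to 255 to 355 TPM in WT and 330 to 753 TPM in *Gde2*KO, with none called. All 12 were higher in *Gde2*KO, with a median log2 fold change of 0.91. An unadjusted limma p under 0.05 was found for 8 of the 12 striatal and 2 of the 10 hippocampal markers, beside 6.91% of all genes. The part of these regions in the values of the Wnt genes was not tested.

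Among the genes of the group not described above, *Wnt5a*, which acts mainly through *Ror1* and *Ror2*, had a mean of 6.08 TPM, and *Wnt5b*, *Wnt6*, *Wnt3*, *Wnt16*, *Wnt1*, *Wnt9b*, *Wnt8a* and *Wnt3a* ranged from 0.0268 to 1.93 TPM. *Fzd4*, the norrin receptor of brain vessels, had 4.14 TPM, *Fzd7* 3.76 TPM, *Fzd6* 2.03 TPM and the co-receptor *Ror2* 0.574 TPM. The antagonists *Sfrp2*, *Sfrp4*, *Wif1* and *Dkk1* ranged from 0.425 to 2.19 TPM. None of those tested was called between genotypes. *Wnt6*, *Wnt3* and *Wif1* are singled out after their values were seen. The counts of *Wnt6* at 4 months were 1.44, 46.6 and 59.1 in WT and 48.2, 46.7 and 75.9 in *Gde2*KO, with WT library 1 far below the rest, and its log2 fold change was 1.67 (SE 1.17, adjusted p = 0.530), or -0.089 without the WT pair. For *Wnt11* at that age the log2 fold change was -1.07 (SE 0.58, adjusted p = 0.487), or 0.13 without the pair. At 19 months the lowest fold change of the group was that of *Wnt3* at -0.73 (SE 0.45, adjusted p = 0.734), which was 0.061 without both shallow libraries, and *Wif1* stood at 0.53 (SE 0.58, adjusted p = 0.805).

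**Figure D3:**
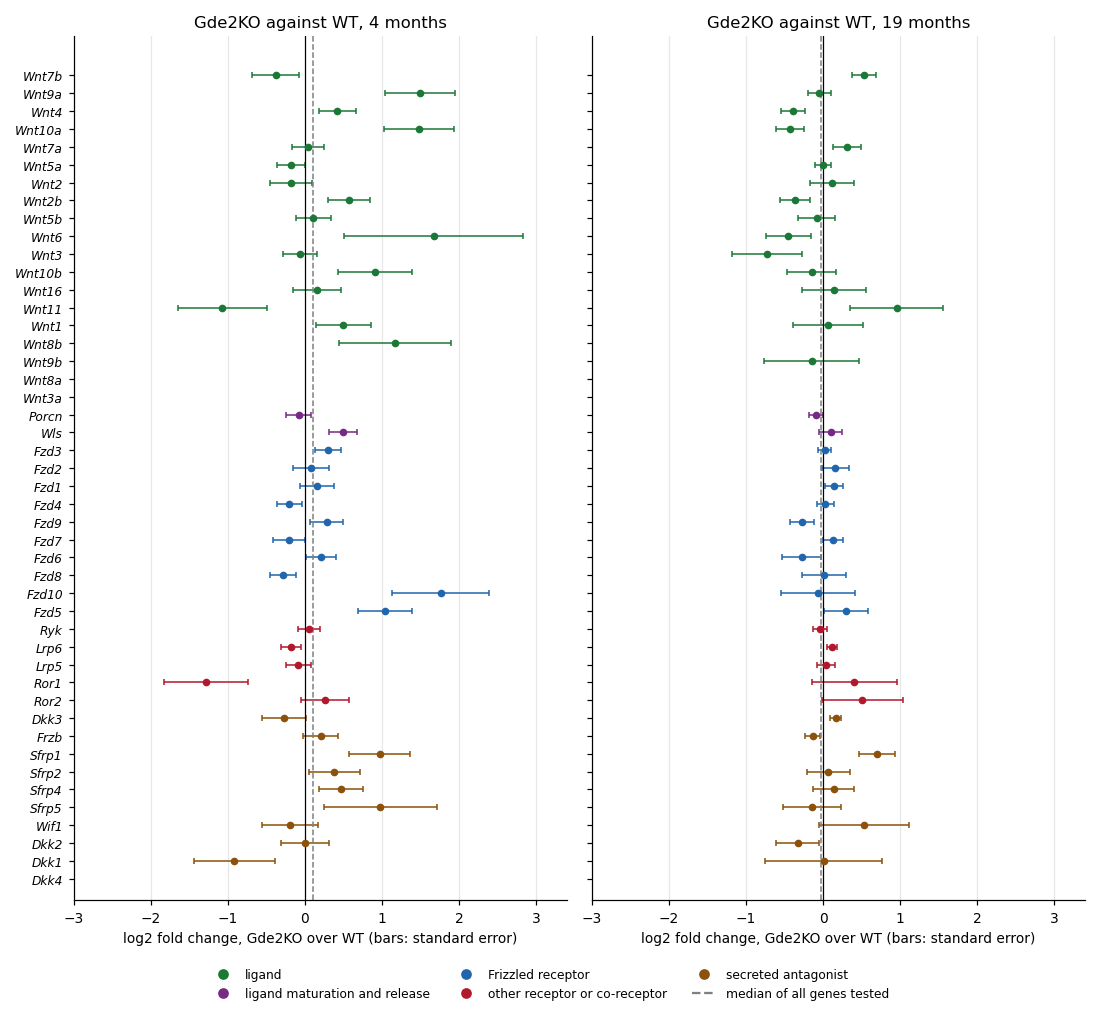
Log2 fold change of *Gde2*KO over WT with its standard error for each tested gene at 4 months (left) and 19 months (right), colored by role, with the median of all genes tested as a dashed line. Genes below the filter have no point. Standard errors are wider at 4 months for *Wnt6*, *Fzd10* and *Sfrp5*, and no point passed the thresholds at either age.

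**Figure D4:**
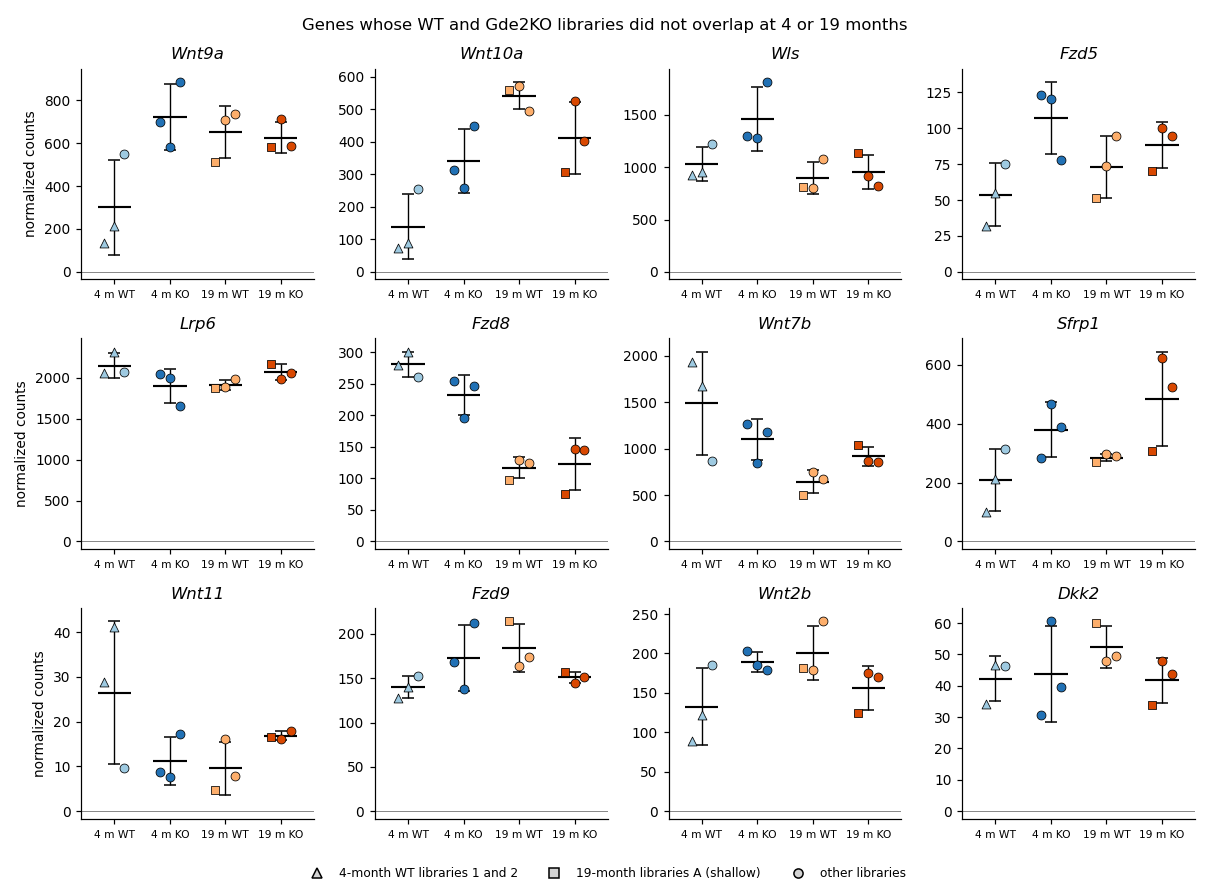
Normalized counts in every library for the 12 genes whose genotypes did not overlap at 4 or at 19 months. Horizontal lines are means of 3 libraries, bars are SD, triangles mark 4-month WT libraries 1 and 2, and squares mark the shallow 19-month libraries. In *Wnt9a* and *Wnt10a* the triangles lie far below every other point.

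Whether the genotype difference itself changed with age was asked with an interaction over the 12 libraries. Of 43 genes tested 0 were called by limma, where 9 of 18731 genes were (0.0480%), and 6 of the 43 had an unadjusted p under 0.05 (14.0%, beside 12.9% of all genes). The 6 were ligands in every case. The genotype difference at 19 months minus that at 4 months was -1.91 (SE 0.55, adjusted p = 0.368) on the log2 scale for *Wnt10a*, -1.54 (SE 0.54, adjusted p = 0.368) for *Wnt9a* and -0.93 (SE 0.35, adjusted p = 0.368) for *Wnt2b*. It was -0.81 (SE 0.31, adjusted p = 0.369) for *Wnt4*, 0.91 (SE 0.38, adjusted p = 0.372) for *Wnt7b* and 2.02 (SE 0.85, adjusted p = 0.373) for *Wnt11*. For each of these 6 ligands the WT pair was outside the other 4 libraries at 4 months, and without the pair the differences shrank to -0.80, -0.41, -0.38, -0.47, 0.21 and 0.83 in the same order.

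Between the ages 8 genes of the group were called. At 19 months 5 were lower (*Wnt7a*, *Wnt2*, *Wnt8b*, *Fzd8* and *Ror1*) and 3 were higher (*Wnt10a*, *Wnt10b* and *Sfrp5*). The 8 were 18.6% of the 43 tested, and 14.0% of all genes tested were called in this comparison (2623 of 18731, 846 higher and 1777 lower). By direction, 11.6% of the group fell beside 9.49% of all genes, and 6.98% rose beside 4.52%. *Wnt8b* passed the filter through the age at which it is high, and without it 4 of 42 fell (9.52%), a share near that of all genes. At an unadjusted p under 0.05 there were 15 of the 43 (34.9%), beside 48.0% of all genes. Rescaling by median-ratio factors moved the median log2 fold change of all genes from -0.15 to -0.04, gave 1078 higher and 1367 lower genes, and left 3 higher and 5 lower in the group. Age cannot be told apart from sequencing depth, since every 19-month library held fewer reads than any 4-month library, and the Y-linked RNA described above moved with age in all but 1 library.

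*Fzd8* fell under every setting tried. It had 280.4, 301 and 262 normalized counts in WT and 255, 197 and 246 in *Gde2*KO at 4 months, and 97.8, 129 and 125 against 74.6, 147 and 146 at 19 months. Every 19-month library was below every 4-month library, and the log2 fold change was -1.12 (SE 0.17, adjusted p = 0.000859). It was called under each of the 25 other settings. *Wnt7a* fell from 397, 582 and 385 in WT and 501, 388.36 and 498 in *Gde2*KO to 191, 217 and 246 against 216, 268 and 335, a log2 fold change of -0.91 (SE 0.14, adjusted p = 0.00101), again with no overlap of the ages. *Wnt2*, a ligand known from lung and placental development, had 262, 193 and 133 against 143.5, 159 and 202 at 4 months and 116, 108 and 56.2 against 99.5, 99.0 and 91.3 at 19 months, a log2 fold change of -0.93 (SE 0.21, adjusted p = 0.00584) and no overlap. These 3 genes and *Ryk* were the 4 whose ages did not overlap in the lower direction (9.30% of the 43, beside 13.7% of all genes). In the higher direction there was none (beside 5.52%).

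*Ror1* had 152, 239 and 62.1 against 65.2, 82.5 and 29.0 normalized counts in WT and *Gde2*KO at 4 months and 37.3, 19.5 and 10.8 against 16.6, 28.8 and 39.0 at 19 months, a log2 fold change of -1.85 (SE 0.41, adjusted p = 0.00558). The ages overlapped through 1 *Gde2*KO library at 4 months. *Wnt8b*, a ligand known from the developing hippocampus, had 5.96, 2.42 and 18.9 against 13.2, 29.8 and 9.66 at 4 months and 0, 2.54 and 0 against 0, 3.97 and 6.66 at 19 months. It reached 5 normalized counts in 6 of the 12 libraries, nearly all of them at 4 months, so that it passed the filter through the age at which it is high. Its fitted log2 fold change of -2.82 (adjusted p = 0.0186) depends on the pseudocount, and it ranged from -3.54 to -0.98 under other settings. *Wnt7b*, the leading ligand, had a log2 fold change of -0.70 (SE 0.19, adjusted p = 0.0137), just short of the fold minimum, and *Wnt10b*, at 0.77, was the called gene nearest to it.

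The 3 higher genes had their low values in the 4-month WT pair. *Wnt10a* had 73.5, 87.7 and 255 against 313, 256 and 448 normalized counts at 4 months and 559, 572 and 493 against 307, 526 and 402 at 19 months in WT and *Gde2*KO, a log2 fold change of 1.24 (SE 0.27, adjusted p = 0.00534). *Wnt10b*, a ligand that favors bone over fat, had 19.5, 16.3 and 43.6 against 25.7, 56.4 and 65.6, then 41.9, 71.1 and 72.8 against 41.5, 64.6 and 59.3, a log2 fold change of 0.77 (SE 0.31, adjusted p = 0.0685). *Sfrp5*, a ligand-binding antagonist, had 4.33, 10.9 and 46.0 against 30.7, 28.2 and 21.4, then 60.6, 31.3 and 47.6 against 49.8, 49.2 and 27.3, a log2 fold change of 1.17 (SE 0.46, adjusted p = 0.0622). In all 3 the ages overlapped. Without the WT pair none of them was called, at log2 fold changes of 0.68, 0.35 and 0.29, and *Wnt2* at -0.68 was also lost. *Wnt7a* (-0.80), *Fzd8* (-1.07) and *Ror1* (-1.31) were still called. *Wnt8b* and *Wnt9b* were called there too, at fitted values of -3.54 and 2.09, but each reached the filter mainly through the age at which it is high. Within *Gde2*KO libraries alone, which hold neither of the pair, 3 of 43 genes were called, *Wnt7a* at -0.77, *Wnt2* at -0.78 and *Fzd8* at -0.98. Over all genes 1885 of 18910 were called there. Within WT libraries alone 9 of 42 were called, beside 2788 of all 18961 genes. Of the 9, *Wnt7a* (-1.04), *Wnt2* (-1.08), *Fzd8* (-1.27), *Ror1* (-2.69) and *Wnt7b* (-1.15) were lower at 19 months. The others, *Wnt10a* (2.19), *Wnt10b* (1.30), *Wnt9a* (1.35) and *Wnt4* (0.80), were higher. Of the marker lists, 8 of 12 striatal and 4 of 10 hippocampal genes were also called lower at 19 months. So were 4 of 8 oligodendrocyte and 3 of 5 oligodendrocyte precursor genes, where 9.49% of all genes were called lower and 4.52% higher. The median log2 fold change was -1.51 for the striatal genes, with 0 of 12 higher. It was -0.99 for the hippocampal genes, with 1 of 10 higher. Of the mural cell genes 3 of 7 were called higher, and of the choroid plexus genes 3 of 10 were called higher and 1 lower. Among the rest 1 of 8 endothelial genes was called higher, 1 of 8 astrocyte and 1 of 10 meningeal fibroblast genes lower, and 0 of the microglial, neuronal and thalamic genes. The part of these cell types and regions in the values of the Wnt genes was not tested.

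**Figure D5:**
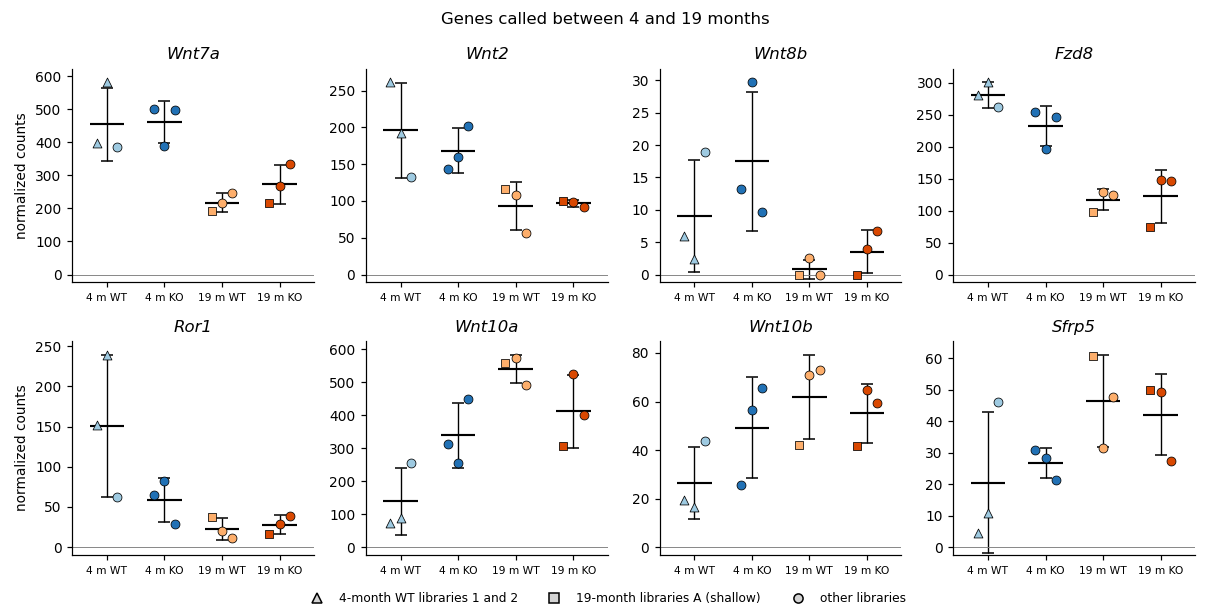
Normalized counts in every library for the 8 genes called between 4 and 19 months, with means (lines) and SD (bars) of 3 libraries, triangles for 4-month WT libraries 1 and 2 and squares for the shallow 19-month libraries. *Fzd8*, *Wnt7a* and *Wnt2* separate the ages in both genotypes, and in *Wnt10a*, *Wnt10b* and *Sfrp5* the triangles are the lowest points.

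The start-site sequences of the 6 genes called between the ages that had an entry are shown because their RNA differed between the ages. A start site of *Wnt11* is shown because it holds a letter match to the core bound by TCF/LEF, the factors through which β-catenin acts. The other start site of *Wnt11* holds no match, and the other genes with a match, named below, are not shown. The printed sequences are from RefSeq on GRCm38.p6 and are read on the strand of the gene. They run from 250 bases before to 50 bases after the annotated start, and capitals mark the match. Of the 46 genes 31 had an entry, with 34 start sites. The genes without one were *Wnt5a*, *Wnt7b*, *Wnt8a*, *Wnt10a*, *Fzd2*, *Fzd3*, *Fzd6*, *Fzd8*, *Lrp5*, *Lrp6*, *Sfrp1*, *Sfrp4*, *Dkk3*, *Dkk4* and *Porcn*.
Wnt7a (chr6:91411304-91411603, minus strand): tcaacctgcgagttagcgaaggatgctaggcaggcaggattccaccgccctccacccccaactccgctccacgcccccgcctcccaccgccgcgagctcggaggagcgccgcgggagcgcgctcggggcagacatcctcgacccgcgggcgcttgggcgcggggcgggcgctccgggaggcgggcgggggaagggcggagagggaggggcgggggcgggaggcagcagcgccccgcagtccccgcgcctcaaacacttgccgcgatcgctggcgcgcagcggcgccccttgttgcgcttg
Wnt2 (chr6:18030396-18030695, minus strand): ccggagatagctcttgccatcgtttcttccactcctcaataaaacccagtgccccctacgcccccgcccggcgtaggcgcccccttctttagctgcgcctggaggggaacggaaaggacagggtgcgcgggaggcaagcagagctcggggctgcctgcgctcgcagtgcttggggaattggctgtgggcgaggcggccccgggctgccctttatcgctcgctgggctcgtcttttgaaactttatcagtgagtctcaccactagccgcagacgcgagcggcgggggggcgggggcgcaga
Wnt8b (chr19:44493222-44493521, plus strand): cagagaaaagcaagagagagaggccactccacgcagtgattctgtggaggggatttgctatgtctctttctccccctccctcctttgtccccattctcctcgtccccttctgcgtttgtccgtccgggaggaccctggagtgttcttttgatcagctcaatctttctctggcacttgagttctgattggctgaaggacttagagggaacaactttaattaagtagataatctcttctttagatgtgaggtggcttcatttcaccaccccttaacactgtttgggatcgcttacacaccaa
Ror1 (chr4:100095541-100095840, plus strand): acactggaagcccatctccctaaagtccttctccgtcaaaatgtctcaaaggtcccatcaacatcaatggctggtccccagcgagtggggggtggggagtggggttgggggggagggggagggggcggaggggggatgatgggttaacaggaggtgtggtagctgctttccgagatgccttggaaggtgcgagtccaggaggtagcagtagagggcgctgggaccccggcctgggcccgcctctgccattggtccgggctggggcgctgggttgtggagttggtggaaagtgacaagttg
Wnt10b (chr15:98778101-98778400, minus strand): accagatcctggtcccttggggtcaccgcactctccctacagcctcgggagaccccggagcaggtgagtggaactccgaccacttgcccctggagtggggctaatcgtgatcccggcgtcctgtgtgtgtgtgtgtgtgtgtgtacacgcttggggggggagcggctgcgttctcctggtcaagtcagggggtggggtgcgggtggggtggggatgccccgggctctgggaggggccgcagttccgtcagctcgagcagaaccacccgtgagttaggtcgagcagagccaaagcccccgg
Sfrp5 (chr19:42202203-42202502, minus strand): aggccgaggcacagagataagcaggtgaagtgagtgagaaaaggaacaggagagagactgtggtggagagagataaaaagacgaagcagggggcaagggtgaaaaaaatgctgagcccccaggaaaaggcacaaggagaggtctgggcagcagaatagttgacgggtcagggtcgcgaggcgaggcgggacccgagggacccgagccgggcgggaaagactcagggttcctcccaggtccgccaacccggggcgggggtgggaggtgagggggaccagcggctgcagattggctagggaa
Wnt11 (chr7:98834862-98835161, plus strand): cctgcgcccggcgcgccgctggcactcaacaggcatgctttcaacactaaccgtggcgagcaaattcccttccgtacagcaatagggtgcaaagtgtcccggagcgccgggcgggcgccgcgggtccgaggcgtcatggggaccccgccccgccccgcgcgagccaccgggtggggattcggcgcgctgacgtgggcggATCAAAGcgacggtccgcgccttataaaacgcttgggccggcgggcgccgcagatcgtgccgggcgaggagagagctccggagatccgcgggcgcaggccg

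Searching both strands for CTTTGAT or CTTTGTT found a match in 5 of the 34 sequences (*Fzd7*, *Wnt3*, *Wnt5b*, *Wnt11* and *Dkk1*), beside 9.33% of the 32851 promoters in the table, and the letters of *Wnt11* begin 51 bases before its start and read CTTTGAT on the other strand. None of the 6 printed sequences of genes called between the ages held a match, which says only that these letters are not in those windows. Their GC content was 76% for *Wnt7a*, 65.7% for *Wnt2*, 48.3% for *Wnt8b*, 62.3% for *Ror1*, 66.3% for *Wnt10b* and 61.3% for *Sfrp5*, beside a median of 66.5% over the group's 34 sequences and 52.7% over all promoters. Several ligand genes are neighbors in the annotation: *Wnt10a* and *Wnt6* lie 6.19 kb apart on chromosome 1, *Wnt10b* and *Wnt1* 11.7 kb apart on chromosome 15, *Wnt9a* and *Wnt3a* 16.2 kb apart on chromosome 11, and *Wnt3* and *Wnt9b* 24.3 kb apart on the same chromosome. Within the pair *Wnt9a* and *Wnt3a* the levels were far apart, at 9.66 and 0.0268 TPM.

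Downstream of the receptors, limma called 0 of 15 target genes of the pathway in each of the 4 comparisons. At 4 months 11 of the 15 were higher in *Gde2*KO with a median log2 fold change of 0.16, and at 19 months 9 of 15 with a median of 0.07, beside medians of 0.11 and -0.02 over all genes. At an unadjusted p under 0.05 there were 2 of the 15 at each age. *Axin2*, the target most widely read as a gauge of β-catenin activity, had 544, 659.9 and 772 normalized counts in WT and 861, 828 and 848 in *Gde2*KO at 4 months, a log2 fold change of 0.37 (SE 0.16, adjusted p = 0.463). The genotypes did not overlap, WT library 1 was the lowest, and without the WT pair the log2 fold change was 0.13. Without the pair 9 of the 15 targets were higher at 4 months, with a median of 0.02, and 1 target was called between the ages, the surface protein gene *Cd44*, higher at 19 months by a log2 fold change of 0.84 (adjusted p = 0.0643) and named after its values were seen. At 19 months *Axin2* had 801, 754 and 883 against 746, 838 and 870.4, a log2 fold change of 0.01 (SE 0.09, adjusted p = 0.986). The other targets of highest TPM at 4 months had log2 fold changes of 0.16 for *Tnfrsf19*, 0.15 for the cyclin gene *Ccnd1*, 0.33 for the feedback inhibitor *Nkd1* and -0.23 for the membrane inhibitor *Apcdd1*, none of them called.

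Among 32 other regulators of the pathway at the surface, 30 were tested and 0 were called between genotypes at either age or for the interaction by limma, with 3, 7 and 9 of them at an unadjusted p under 0.05 at 4 months, at 19 months and for the interaction. Between the ages 3 of the 30 were called higher and 5 lower, where 4.52% of all genes were called higher and 9.49% lower. The 3 that rose were *Rspo1* (1.45 on the log2 scale), an R-spondin that amplifies Wnt signals, *Cthrc1* (2.32) and *Trabd2b* (1.13), a protease gene acting on ligands. There 5 fell, the antagonist *Sostdc1* (-1.18), the antagonist *Draxin* (-1.38), the glypicans *Gpc3* (-1.21) and *Gpc4* (-0.78), and *Ndp* (-0.76), whose product norrin is a ligand of *Fzd4*. Without the 4-month WT pair 4 of these 8 were still called, *Cthrc1*, *Trabd2b*, *Gpc3* and *Ndp*. Of 24 intracellular genes of the pathway limma called 0 in each comparison, and 3, 1, 3 and 11 had an unadjusted p under 0.05 at 4 months, at 19 months, for the interaction and between the ages. Over all genes tested the shares with an unadjusted p under 0.05 were 10.6%, 6.91%, 12.9% and 48.0% in the same order. Of the lists, *Rnf43*, *Znrf3*, *Notum*, *Apcdd1* and *Lgr5* stand both among the targets and among the surface regulators, and *Axin2*, *Lef1* and *Tcf7* both among the targets and among the intracellular genes.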

How the data were processed

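Poly(A) RNA from mouse cortex was sequenced in 12 libraries, 3 per genotype and age. For each transcript the authors deposited signal values made with Kallisto on GRCm38 and Sleuth: estimated counts divided by a size factor per library, called normalized counts here, and TPM divided likewise. The submitters' processing notes also name bcl2fastq 2.17, Trimmomatic 0.36 and STAR 2.5.2b. At 19 months the columns carry no replicate number, and their libraries are lettered A to C by column. The column names of *Gde2*KO libraries B and C begin with the same code, which the labels do not explain. All columns had a group. From 46.7% to 62.9% of genes per library came out as whole reads (tolerance 0.01), and count models were not used. Depth per library was estimated from the commonest low value, taken as 1 read.

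Transcripts were summed per gene, and the 1673 without a gene (0.541% to 0.605% of a library) were left out. Genes with 5 normalized counts or more in at least 47% of the libraries of a comparison were tested with limma 3.58.1 (R 4.3.3) on log2(value + 0.5), with an intensity trend. Genotypes were compared within each age, and the interaction and the ages over 12 libraries. A call needed a p adjusted by Benjamini-Hochberg over all genes tested of less than 0.1 and a fold change larger than 0.5 in natural log units (0.721 in log2 units), the second condition not applying to the interaction. The log2(value + 0.5) scale understates changes of low genes. The SE and adjusted p of single genes are those of limma. The exact permutation p is printed only for genes whose genotypes did not overlap, where its value is fixed. The fit was tested on simulated data, where small interaction changes were recovered poorly. Those data held no outlying libraries like the WT pair, and only genes of higher counts were changed in them. Recovery with such a pair or for low genes was therefore not tested. Positions are from GENCODE vM21 and promoter sequences from RefSeq, both on GRCm38.

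Every library is given, in the text or in the figures, for genes called in any comparison and for *Porcn* and *Wls*. The same holds for genes whose genotypes did not overlap at an age and for the 3 genes of highest mean TPM in each role. For *Wnt9a*, *Wls*, *Fzd5*, *Lrp6*, *Fzd9*, *Wnt2b* and *Dkk2* the text prints only the age at which the genotypes did not overlap. Genes outside this rule are named as chosen after their values were seen. Marker and pathway lists were written by hand. The genes, lists and libraries to leave out were chosen with earlier results of these data known. Other pseudocounts, filters, units, scalings, variance models and thresholds, a replicate block and each library left out were tried. Tables used pandas 2.3.3 and numpy 2.4.6 under python 3.11.15, and plots matplotlib 3.10.9.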

Additional observations from a re-analysis of the deposited data

How the results depend on the processing

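Of the values recomputed under other settings, 716 kept their direction and side of the threshold, 35 passed it newly, 32 no longer passed it and 11 changed sign. The sign changed for *Dkk3* (0.43), *Wnt7b* (0.33), *Wnt11* (0.13), *Wnt6* (-0.089), *Fzd2* (-0.43) and *Fzd3* (-0.031) at 4 months without WT libraries 1 and 2, where 1 WT library was left, and for *Wnt3* (0.061) at 19 months without both shallow libraries. It also changed for *Fzd2* at 4 months, whose 0.08 became -0.021 with median-ratio rescaling and -0.085 to 0.33 with single libraries left out. The cause of the other changes was not tested. At 4 months, 0 genes of the group were called under the settings other than array weights (11) and leaving out WT library 3, with 0 to 11 when single libraries were left out. Over all genes that count was 24, and it was 12 with no filter, 12 with no intensity trend, 12 at an adjusted p under 0.05, 14 without WT libraries 1 and 2, 2934 with array weights and 5 (without *Gde2*KO library 3) to 1510 (without WT library 3) with single libraries left out. At 19 months, *Sfrp1* was the 1 gene of the group called with array weights and the 1 called without both shallow libraries, and leaving out single libraries gave 0 to 1. All genes called were 18, against 7 with no intensity trend, 77 with array weights, 34 without both shallow libraries and 9 (without WT library A) to 45 (without *Gde2*KO library B) with single libraries left out. For the interaction, array weights called 23 of the group and 8744 genes, TPM 5 genes, and leaving out single libraries 0 to 9 of the group and 6 to 2029 genes, the highest of both without 4-month WT library 3. Between ages 8 of the group were called, against 15 with no fold minimum, 5 without 4-month WT libraries 1 and 2, 3 in *Gde2*KO libraries alone, 9 in WT libraries alone and 5 (without 4-month WT library 1) to 10 (without 4-month WT library 3) with single libraries left out. There 2623 of all genes were called, against 8860 with no fold minimum, 1720 without the 4-month WT libraries 1 and 2 and 2160 to 2750 with single libraries left out. An alternative chosen after seeing the data, without the 4-month WT pair and both shallow libraries, called 6 of the group between ages (*Wnt10a*, *Wnt2*, *Fzd8*, *Ror1*, *Wnt8b* and *Wnt9b*), with *Wnt7a* at -0.68 under the fold minimum. Over all genes the calls between ages were 1885 in *Gde2*KO libraries alone and 2788 in WT libraries alone. *Wnt10b* was not called under 13 of 25 settings and *Sfrp5* under 12 of 25. The array weights did not converge in 3 of the 4 comparisons, 19 months excepted, so those counts are given only for completeness.

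With the replicate number as a block at 4 months, 21 genes and 0 of the group were called. Same-numbered libraries correlated at 0.06, 0.01 and -0.05 in their deviations from the group means, and not every library correlated best with its own number, so the numbers were not taken to pair animals. No paired analysis was possible at 19 months because the columns carry no replicate number. At 19 months, genes of low level are limited by the shallow libraries, in which 1 read was worth 4.66 or 8.29 normalized counts.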

Other observations

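Transcript usage could be followed for the pair of genes that ready ligands for release, as shares of each gene's TPM (mean ± SD, n = 3) in the deposited estimates. In *Porcn* the leading protein-coding transcript ENSMUST00000077595.11 held 59.1% ± 3.38 in WT and 60.7% ± 4.35 in *Gde2*KO at 4 months, and 52.4% ± 4.70 and 54.5% ± 7.75 at 19 months. A transcript annotated for nonsense-mediated decay, ENSMUST00000122943.1, held 11.5% ± 1.77 and 9.94% ± 3.09 at 4 months and 17.1% ± 1.12 and 17.3% ± 2.98 at 19 months. In *Wls* the protein-coding transcript ENSMUST00000068952.9 held 48.4% ± 5.36 and 52.2% ± 6.47 in WT and *Gde2*KO at 4 months and 42.8% ± 4.97 and 38.2% ± 6.97 at 19 months. These shares were chosen after their values were seen, and no difference between them was tested.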
